A study of Zea mays with 6 samples.

Results

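Abscisic acid (ABA) synthesis and water-deficit response were followed in maize (Zea mays) through 4 genes of the 45855 in the deposited tables. They are the 9-cis-epoxycarotenoid dioxygenase (NCED) genes Zm00001d033222 (vp14, viviparous14), Zm00001d041319 and Zm00001d007876, and the dehydrin gene Zm00001d037894 (dhn1, also called rab17). The genes were picked by their B73 RefGen_v4 identifiers, and the rule for picking them names no measured value, although earlier results of these data were known when it was written. The names were given with these identifiers when the genes were chosen, and no table used here pairs the identifiers with them. Polyadenylated RNA was sequenced from seedlings at the coleoptile stage, in 3 Fdl1-/- samples and 3 wild-type samples, described as biological replicates. The labels used here name no treatment for either group. They do not give the lesion of the Fdl1 allele, the strain, or how many seedlings a sample pools. FDL1, or fused leaves1, is a MYB regulator gene known for its role in the seedling cuticle. Its name could not be paired with an identifier by the table used here, so its level was not used to check the genotype labels, and the seedling label was not checked against marker genes for the same reason.

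ABA is a plant hormone made by cleaving carotenoid pigments. NCED enzymes cut 9-cis-epoxycarotenoids in plastids to give xanthoxin, the step known to limit ABA synthesis, and xanthoxin is then turned into ABA in the cytosol. vp14 was identified in maize through mutant kernels that germinate on the ear, a sign of too little ABA. Dehydrins are hydrophilic late embryogenesis abundant proteins that build up in drying embryos and in water-stressed leaves, and rab17 (responsive to ABA) is a widely used maize marker of ABA and water deficit.

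Each library held 26807205 to 36123679 expected counts, the reads assigned to genes by RSEM, which divides reads shared between genes. Wild-type replicate 1 stood apart from the other libraries. Its log-CPM values (log2 of counts scaled to a common library total) correlated across genes with replicates 2 and 3 of wild type at a mean Pearson r of 0.944. The remaining pairs within a group ran from 0.973 to 0.980. Results are given with and without that library where it moves them. In tissue samples of this kind, fewer expressing cells and less RNA per cell cannot be told apart.

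Levels were compared as TPM, which is scaled to transcript length and library total. Of the 4 genes, dhn1 and both weakly expressed NCED genes had higher TPM in every Fdl1-/- library than in any wild-type library. The wild-type range of vp14 lay within its Fdl1-/- range. Among all tested genes the groups did not overlap in CPM for 21.9%, and 10.7% were higher in Fdl1-/- with no overlap. These shares are no fair background for the weakly expressed NCED genes. Zm00001d007876 was not among the tested genes, and its closest libraries held 3 counts and 1. Zm00001d041319 was tested only because of its Fdl1-/- libraries. The mean TPM was 3.46 times higher in Fdl1-/- for dhn1, 6.65 times higher for Zm00001d041319 and 1.02 times higher for vp14. None of the 3 genes abundant enough to be tested passed the threshold of edgeR's quasi-likelihood test at a Benjamini-Hochberg adjusted p under 0.05, while 2 of the 3, both higher in Fdl1-/-, did so before adjustment. In that test 2.68% of 26098 genes passed, 1.68% as higher in Fdl1-/-. Before adjustment 15.8% of genes lay under 0.05, 7.74% as higher. Of the 2 genes under it, Zm00001d041319 was kept by the filter on low counts through its Fdl1-/- libraries alone. The 2 of 3 can therefore not be set against that share. With DESeq2, which called 7.01% of all genes with an adjusted p, 1 of the 4 genes was called. With limma-voom, which called 2.76% of all tested genes, 0 were called.

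**Figure D1:**
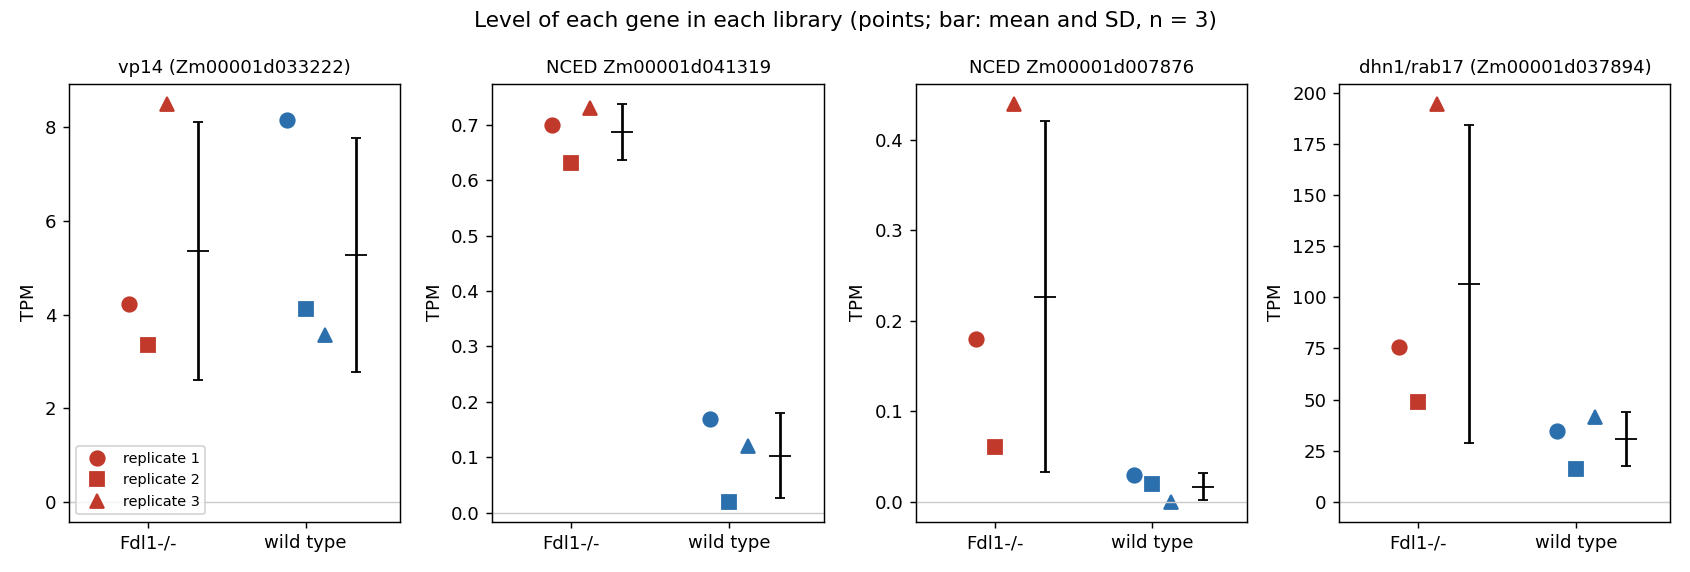
TPM of each gene (vertical axes, one scale per panel) in the 3 Fdl1-/- libraries (red) and the 3 wild-type libraries (blue), with the mean and SD beside the points. The groups overlap for vp14 and do not overlap for the other genes, and Fdl1-/- replicate 3 is the highest library in all 4 panels.

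The order of the levels within a library was dhn1, vp14, Zm00001d041319 and Zm00001d007876, in TPM, in each of the 3 Fdl1-/- libraries. The same order held in wild type except at its low end, where the ranges of Zm00001d041319 and Zm00001d007876 overlapped and both had 0.02 TPM in replicate 2. The ranges of all other neighbours in the order did not overlap within either group. By TPM, dhn1 was above 91.6% to 98.2% of all genes in the Fdl1-/- libraries and above 77.7% to 89.6% in the wild-type libraries. The corresponding range for vp14 was 58.9% to 68.2% in Fdl1-/- and 59.6% to 67.9% in wild type.

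vp14, the NCED gene whose loss gives viviparous kernels, was the most abundant of the NCED genes in every library and was not called as different between the genotypes. Its level was 4.22, 3.35 and 8.51 TPM in Fdl1-/- replicates 1, 2 and 3, against 8.15, 4.11 and 3.56 TPM in wild-type replicates 1, 2 and 3. One library in each group was high, Fdl1-/- replicate 3 and wild-type replicate 1, and the other libraries of both groups lay close together. The means were 5.36 ± 2.76 TPM in Fdl1-/- and 5.27 ± 2.51 TPM in wild type (SD, n = 3 each). These levels rest on 156 to 372 counts per Fdl1-/- library and 149 to 303 counts per wild-type library. In edgeR vp14 had a log2 fold change of -0.04 ± 0.47 (SE) and an adjusted p of 0.981. Its 95% interval ran from -1.15 to 1.06, so ratios of 0.451 to 2.09 lie within it. The sign turned with the library left out. The log2 fold change of vp14 was 0.48 without wild-type replicate 1 and -0.54 without Fdl1-/- replicate 3, and neither passed the threshold (edgeR, adjusted p 0.585 and 0.741, with 0.585 to 0.998 over all 17 alternatives).

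Zm00001d041319, the second NCED gene by level, was near the detection floor in wild type and low but measurable in Fdl1-/-. It had 0.70, 0.63 and 0.73 TPM in Fdl1-/- replicates 1, 2 and 3, against 0.17, 0.02 and 0.12 TPM in wild-type replicates 1, 2 and 3. The groups did not overlap, and the lowest Fdl1-/- library was 3.71 times the highest wild-type library. The levels of Zm00001d041319 came from 26, 29 and 32 counts in the Fdl1-/- libraries, against 6, 1 and 5 counts in the wild-type libraries. Summed over libraries, 87 counts in Fdl1-/- stood against 12 in wild type, a ratio per assigned read of 7.07 (exact 95% counting interval 3.85 to 14.2). Without wild-type replicate 1 that ratio was 10.2 (4.49 to 28.5), from 87 counts against 6. A floor of 3 counts corresponded to 0.064 to 0.081 TPM of this gene per library, and wild-type replicate 2 lay under it.

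The fitted log2 fold change of Zm00001d041319 was 2.72 (SE 0.63, 95% interval 1.23 to 4.20), with an unadjusted p of 0.00333 and an adjusted p of 0.0779 in edgeR. It thus missed the threshold, although 0.866% of all tested genes had a larger log2 fold change. The gene entered the test through its Fdl1-/- libraries alone, since its wild-type levels were under the count filter, so its place among tested genes is tied to that difference. DESeq2's Wald test called it at an adjusted p of 0.0153, where it called 3.83% of 28430 genes as higher. A limma fit of log2(TPM + 1) also called it, at an adjusted p of 0.0491, where 1.31% of 30468 genes were called as higher. The fold change on that scale was 0.61, since the pseudocount of 1 lies above the level of the gene in every library. With wild-type replicate 1 left out the log2 fold change was 3.27 (edgeR, adjusted p 0.0601), and over all 16 alternatives the adjusted p ran from 0.0153 to 0.252. In the exact two-sided permutation test on TPM the difference gave p = 0.1, the smallest value that 3 against 3 samples allow.

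Zm00001d007876, the third NCED gene, had too few counts for the edgeR test. It had 0.18, 0.06 and 0.44 TPM in Fdl1-/- replicates 1, 2 and 3, against 0.03, 0.02 and 0.00 TPM in wild-type replicates 1, 2 and 3. The groups did not overlap, but the Fdl1-/- libraries spread over a 7.33-fold range and replicate 3 held most of the reads. The counts were 6, 3 and 18 in the Fdl1-/- libraries, against 1, 1 and 0 in the wild-type libraries. Every wild-type library was thus under the floor of 3 counts, as was the unrounded estimate of 2.61 counts in Fdl1-/- replicate 2. Over all libraries 27 counts in Fdl1-/- stood against 2 in wild type, a ratio of 13.2 (exact 95% counting interval 3.31 to 114). Without Fdl1-/- replicate 3 the ratio was 6.67 (1.38 to 63.4), from 9 counts against 2. Without wild-type replicate 1 it was 19.0 (3.12 to 776), from 27 counts against 1. With no filter on low counts the adjusted p of Zm00001d007876 was 0.200 in edgeR, and DESeq2 gave 0.204.

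The weakly expressed NCED genes together made up a larger share of NCED transcripts in Fdl1-/-. vp14 took 82.7%, 82.9% and 87.9% of the summed NCED TPM in Fdl1-/- replicates 1, 2 and 3, against 97.6%, 99.0% and 96.7% in wild-type replicates 1, 2 and 3. All Fdl1-/- shares lay under all wild-type shares. Among all tested genes the groups did not overlap in CPM for 21.9%, which is no fair background for these sparse genes. The mean share of vp14 was 84.5% ± 2.93 in Fdl1-/- and 97.8% ± 1.16 in wild type (SD, n = 3 each, exact two-sided permutation p = 0.1). That p is the smallest that 3 against 3 samples allow. By counts, Zm00001d041319 and Zm00001d007876 took 32 of 189, 32 of 188 and 50 of 422 NCED counts in Fdl1-/- replicates 1, 2 and 3. In wild-type replicates 1, 2 and 3 they took 7 of 310, 2 of 193 and 5 of 154. As shares these are 16.9% (Wilson 95% interval 12.3 to 22.9), 17.0% (12.3 to 23.0) and 11.8% (9.10 to 15.3) in Fdl1-/-. They are 2.26% (1.10 to 4.59), 1.04% (0.285 to 3.70) and 3.25% (1.39 to 7.37) in wild type. The intervals cover counting error only, and no Fdl1-/- interval overlaps a wild-type one. These shares come from the same counts as the levels above. They restate the difference of the weakly expressed NCED genes and are no further support for it. The summed NCED level itself was 6.27 ± 3.00 TPM in Fdl1-/- and 5.39 ± 2.57 TPM in wild type (SD, n = 3 each), a difference smaller than either SD.

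**Figure D2:**
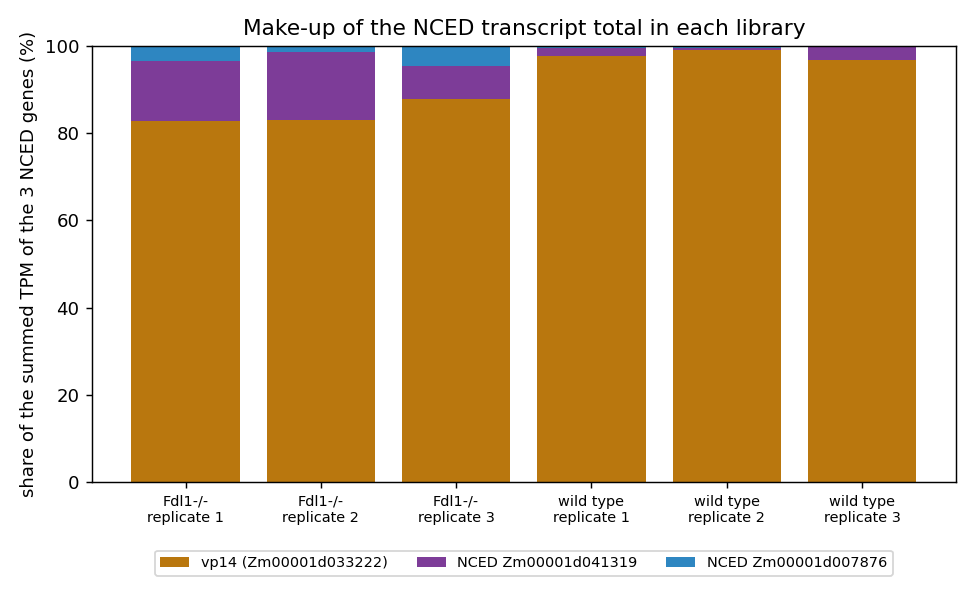
Share of the summed TPM of the 3 NCED genes taken by each gene (vertical axis, percent), 1 bar per library. vp14 takes 82.7% to 87.9% in the Fdl1-/- libraries and 96.7% to 99.0% in the wild-type libraries.

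Expected counts that are not whole mark reads that RSEM divided between genes. The expected counts of vp14 and of Zm00001d041319 were whole, within 0.005, in 0 of 6 libraries, and those of Zm00001d007876 in 2 of 6. Those 2 were wild-type replicates 2 and 3, with counts of 1 and 0, and a count of 0 is always whole. The largest distance from a whole number was 0.43 for vp14, 0.26 for Zm00001d041319 and 0.39 for Zm00001d007876. Such a distance does not give the number of divided reads. Values of the NCED genes, those of Zm00001d007876 above all, are uncertain where such reads are a large part of the count. The counts of dhn1 were whole in 6 of 6 libraries. All 4 genes have 1 annotated transcript each, with lengths of 1815 nt for vp14 and for Zm00001d041319, 1728 nt for Zm00001d007876 and 934 nt for dhn1, so no shift between transcripts enters their TPM.

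dhn1, the dehydrin gene, was the most abundant of the 4 genes, and its Fdl1-/- libraries spread over a 3.99-fold range. It had 75.6, 48.8 and 194.7 TPM in Fdl1-/- replicates 1, 2 and 3, against 34.8, 16.1 and 41.4 TPM in wild-type replicates 1, 2 and 3. The groups did not overlap, but Fdl1-/- replicate 2 was only 1.18 times wild-type replicate 3, and Fdl1-/- replicate 3 was far above every other library. The means were 106.4 ± 77.7 TPM in Fdl1-/- and 30.8 ± 13.1 TPM in wild type (SD, n = 3 each), and the medians differed by 2.18-fold. Counting error is small here, with 1413, 1142 and 4267 counts in the Fdl1-/- libraries and 648, 374 and 869 counts in the wild-type libraries.

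The log2 fold change of dhn1 was 1.75 (SE 0.55, 95% interval 0.44 to 3.05), with an unadjusted p of 0.0156 and an adjusted p of 0.175 in edgeR. It did not pass the threshold in any of 17 alternatives, where the adjusted p ran from 0.103 to 0.374. Without Fdl1-/- replicate 3 the log2 fold change of dhn1 was 0.99, with an adjusted p of 0.374 in edgeR, and without wild-type replicate 1 it was 1.90. The exact two-sided permutation p on TPM was 0.1, the smallest possible with 3 against 3 samples. The spread of dhn1 between replicates was large for its level. Its biological coefficient of variation, the spread beyond counting error in the edgeR model, was 0.454. It exceeded that of 99.0% of the 4320 tested genes with a mean CPM within 1.5-fold of its own, whose median was 0.142. For vp14 the coefficient was 0.419, above that of 88.7% of 3597 genes of like level, and for Zm00001d041319 it was 0.397, above that of 33.1% of 2213 such genes.

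**Figure D3:**
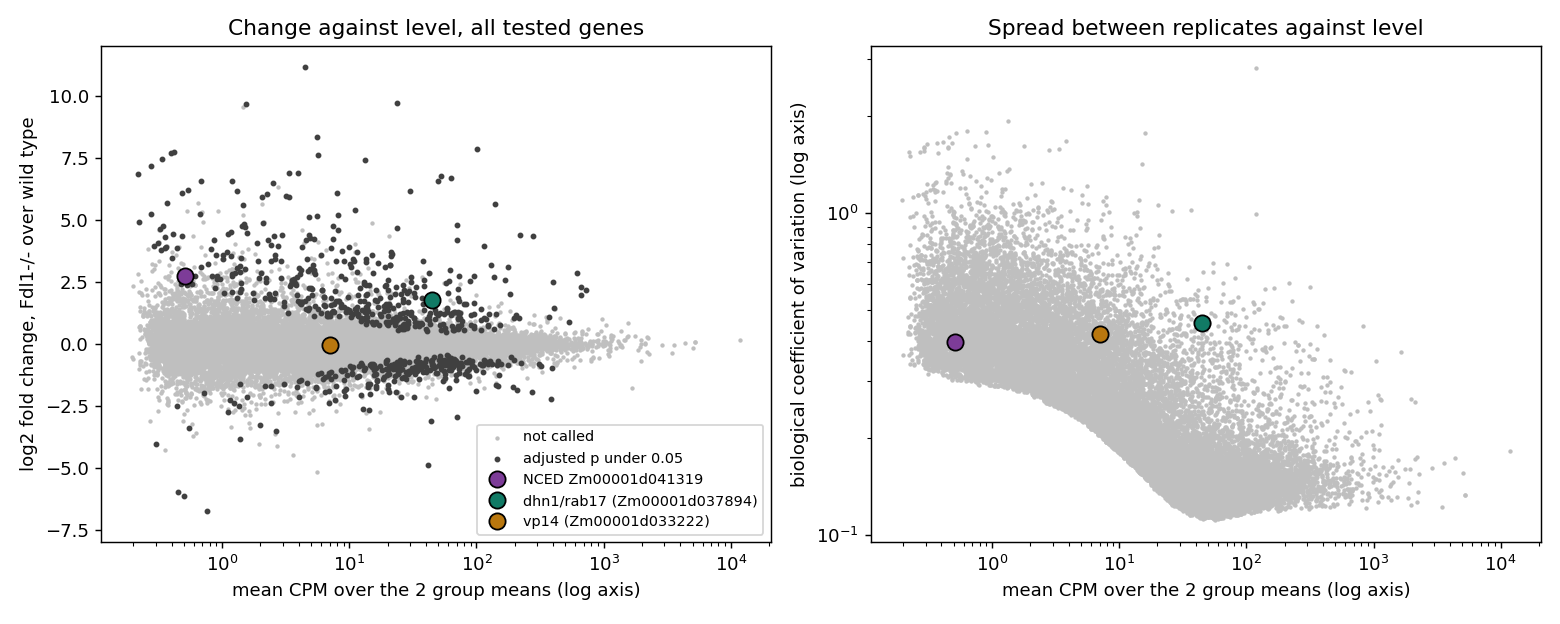
Log2 fold change (left) and biological coefficient of variation (right, log axis) against mean CPM (log axis) for 26098 tested genes, with vp14, Zm00001d041319 and dhn1 as large points and genes past the threshold in dark grey on the left. dhn1 lies among the most variable genes of its level, with a coefficient of 0.454 against a median of 0.142.

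By TPM, Fdl1-/- replicate 3 had the highest level of all 4 genes. By CPM that held for all but vp14, which was highest in wild-type replicate 1 (11.5 against 10.9 CPM). Among all tested genes 13.3% had their highest CPM in Fdl1-/- replicate 3. Ranked within the Fdl1-/- libraries alone that share was 37.6%, the closer background for genes already higher in every Fdl1-/- library. For Zm00001d041319 the lead was small, 0.73 against 0.70 TPM in Fdl1-/- replicate 1 (32 against 26 counts). In wild type the highest library was replicate 1 for vp14 and Zm00001d041319 and replicate 3 for dhn1. The level of dhn1 set against the NCED sum was 14.8, 12.1 and 20.1 times in Fdl1-/- replicates 1, 2 and 3, against 4.16, 3.87 and 11.3 times in wild-type replicates 1, 2 and 3. These ratios did not overlap between the groups, although Fdl1-/- replicate 2 and wild-type replicate 3 were close. The NCED sum was mostly vp14, whose groups overlapped, so the ratios largely restate the dhn1 levels. In CPM, 10.7% of all tested genes were higher in Fdl1-/- with no overlap. Fdl1-/- replicate 3 and wild-type replicate 1 had nearly the same vp14 level, 8.51 and 8.15 TPM, with 194.7 TPM of dhn1 in the Fdl1-/- library and 34.8 TPM in the wild-type one. Fdl1-/- replicate 1 and wild-type replicate 2 were also close in vp14, at 4.22 and 4.11 TPM, and had 75.6 and 16.1 TPM of dhn1. Fdl1-/- replicate 2 and wild-type replicate 3, with 3.35 and 3.56 TPM of vp14, had 48.8 and 41.4 TPM of dhn1, so the gap in dhn1 at like vp14 levels ranged widely.

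**Figure D4:**
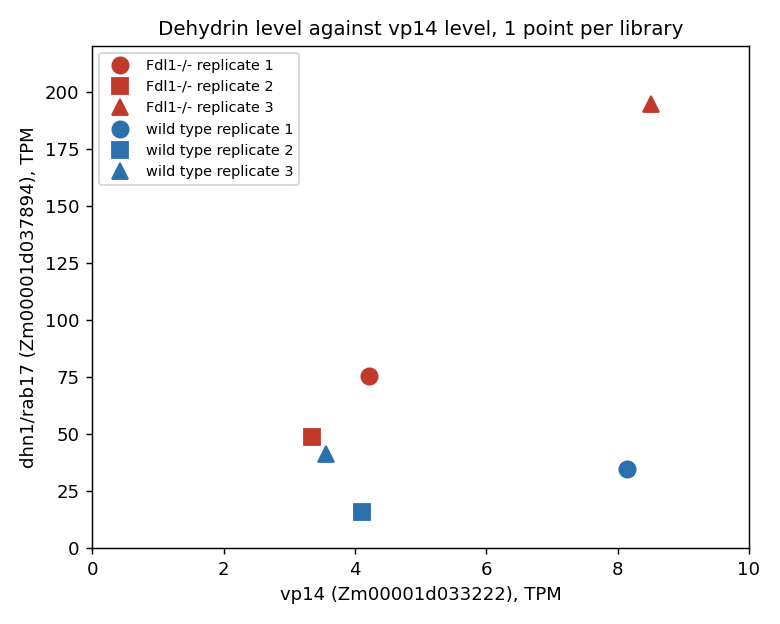
TPM of dhn1 (vertical axis) against TPM of vp14 (horizontal axis), 1 point per library, with Fdl1-/- in red and wild type in blue. Libraries with 8.51 TPM (Fdl1-/- replicate 3) and 8.15 TPM (wild-type replicate 1) of vp14 hold 194.7 and 34.8 TPM of dhn1, while those with 3.35 TPM (Fdl1-/- replicate 2) and 3.56 TPM (wild-type replicate 3) hold 48.8 and 41.4 TPM.

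The genes next to the 4 genes were read in the same fit. Within 5 gene numbers on either side in the deposited tables lay 40 genes, of which 22 were tested. None of these passed in edgeR (0 of 22), beside 2.68% of all tested genes. Before adjustment 2 of 22 lay under 0.05, beside 15.8% of all tested genes. With DESeq2 1 of 24 neighbours with an adjusted p was called, beside 7.01% of all such genes. With limma-voom 0 were called, beside 2.76% of all tested genes. Log2 fold changes ran from -0.37 to 0.0035 among the 6 tested neighbours of vp14 and from -0.72 to 0.16 among the 5 of Zm00001d041319. They ran from -1.83 to 0.043 among the 6 of Zm00001d007876 and from -1.09 to 0.76 among the 5 of dhn1, with lowest adjusted p of 0.117 and 0.238 in edgeR.

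Over the 6 libraries, the gene whose log-CPM was most like that of dhn1 was Zm00001d012233, with a Pearson r of 0.990. For Zm00001d041319 it was Zm00001d002625 (r = 0.9997) and for vp14 it was Zm00001d014189 (r = 0.996). These are the highest of about 22558 values each, and 85, 216 and 97 genes exceeded 0.95 for dhn1, Zm00001d041319 and vp14. Such values describe 6 libraries of 2 genotypes, and the like genes moved by different amounts. The log2 fold change of Zm00001d012233 was 0.15 (SE 0.14) and that of Zm00001d002625 was 0.64 (SE 0.14), with adjusted p of 0.720 and 0.0736 in edgeR.

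Other scalings, filters and tests, the replicate block and leaving out each library were tried for the 3 tested genes. The log2 fold change ran from 0.61 to 3.27 for Zm00001d041319 over 16 alternatives, from 0.99 to 2.09 for dhn1 over 17 and from -0.54 to 0.48 for vp14 over 17. The 0.61 came from log2(TPM + 1), whose pseudocount lies above every level of Zm00001d041319, so it is not on the scale of the others. The next lowest value of that gene was 2.03, on log2(TPM + 0.1). The median over all tested genes was -0.033. Thresholds were passed in 2, 0 and 0 of these alternatives for Zm00001d041319, dhn1 and vp14.

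**Figure D5:**
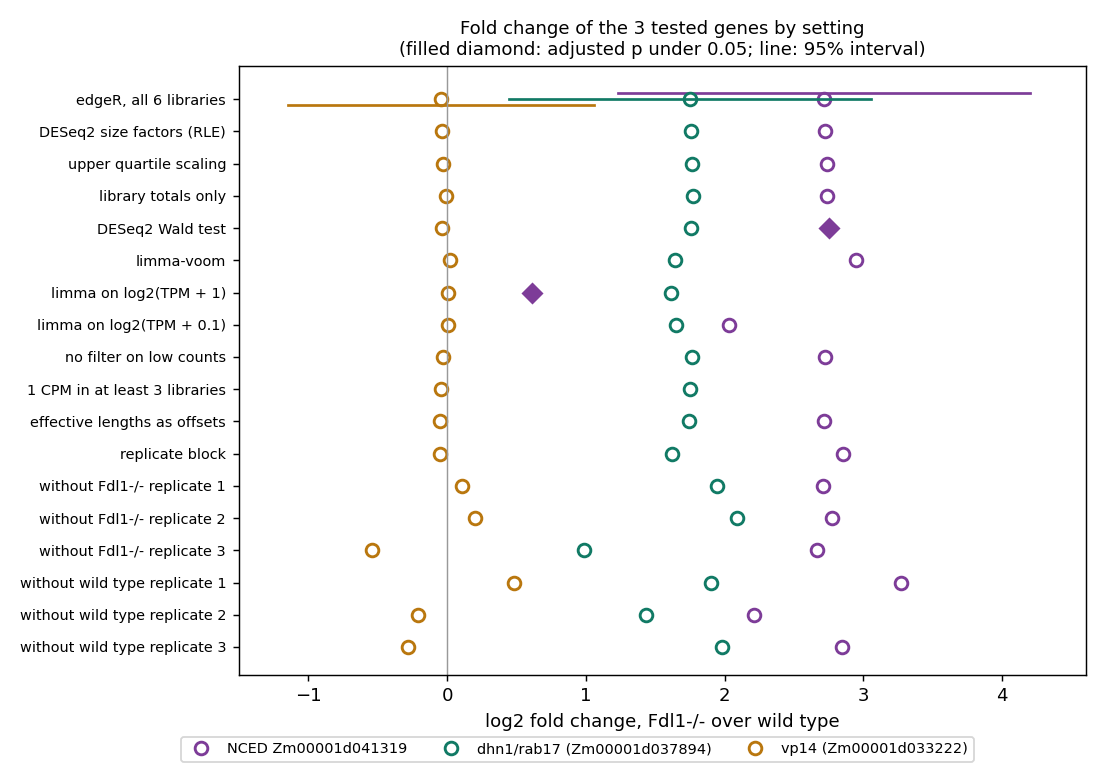
Log2 fold change of Fdl1-/- over wild type (horizontal axis) for the 3 tested genes under each setting (rows), with filled diamonds where the adjusted p was under 0.05 and 95% intervals in the top row. Zm00001d041319 is called in 2 of 16 alternatives and dhn1 and vp14 in 0 of 17 each.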

How the data were processed

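RNA of 6 maize seedling samples was measured with a stranded TruSeq mRNA kit, per the labels' protocols. The submitters' processing notes name Bowtie2, RSEM, DESeq2 and limma and the build B73 RefGen_v4, with no version or role for a tool. Per the file headers, the deposited tables are RSEM gene output holding expected counts, TPM and FPKM values and mean transcript lengths in nt for 45855 genes. The FPKM values deposited by the authors entered no result. The strand setting of the counting is not given in the sources used here.

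Expected counts were rounded and tested with edgeR 4.0.16 in R 4.3.3 (filterByExpr with a minimum count of 10, TMM scaling, two-sided quasi-likelihood test, Benjamini-Hochberg adjustment over all tested genes), with no replicate block. On simulated data the fit recovered 76 of 100 genes changed 4-fold and 28 of 100 changed 2-fold, and it called 9 unchanged genes. A gene that was not called may thus still differ. CPM values are on the TMM scale, with a prior count of 2 for log-CPM. TPM values were compared by exact permutation tests in scipy 1.17.1. The exact counting intervals, the Wilson intervals and the floors cover counting error only. The intervals of the edgeR log2 fold changes also include the spread between replicates. Settings tried were other scalings, DESeq2 1.42.0, limma 3.58.1, log2(TPM + 1) and log2(TPM + 0.1) for genes with at least 0.1 TPM in 3 libraries, other filters, leaving out each library, a block on replicate number and offsets from effective lengths.

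The members and lists were chosen with earlier results of these data known. Genes named for likeness were those with the highest Pearson r with a tested member, among genes with a mean of at least 1 CPM. Lists of other ABA, dehydrin and tissue marker genes were to be taken from descriptions in a gene table. That table, of assembly NAM-5.0, matched 0 of 43789 identifiers beginning Zm00001d and holds no descriptions, so the lists had no members and were not tested. It lists vp14, and dhn1 with rab17, as gene synonyms without these identifiers.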

Additional observations from a re-analysis of the deposited data

How the results depend on the processing

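Of 26098 genes tested, 699 passed in edgeR. The count was 1993 in DESeq2's Wald test, 122 with the replicate block and 121 at an adjusted p under 0.01, and leaving out 1 library at a time gave 128 to 837. It was 128, 184 and 193 without Fdl1-/- replicates 1, 2 and 3, and 149 without wild-type replicate 2. The sign of the log2 fold change of vp14 (Zm00001d033222), -0.04 in edgeR, turned in limma-voom (0.024), in limma on log2(TPM + 1) and log2(TPM + 0.1) (0.0061 and 0.0045), and when 1 library was left out, where it ran from -0.54 to 0.48. Zm00001d041319 passed the threshold in DESeq2's Wald test (log2 fold change 2.75) and in limma on log2(TPM + 1) (0.61), but not with the pseudocount of 0.1 (2.03, adjusted p 0.0743). When 1 library was left out it ran from 2.21 to 3.27, and dhn1 (Zm00001d037894) from 0.99 to 2.09. The cause was not tested.

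Same-numbered samples had correlations of their deviations from the group means of -0.22, 0.13 and -0.18, so the numbers gave no pairing. Differently numbered samples ran from -0.18 to 0.27. The highest were Fdl1-/- replicate 3 with wild-type replicate 1 (0.27) and Fdl1-/- replicate 1 with wild-type replicate 3 (0.22). Whether samples with different numbers share a batch was not tested. With the replicate block the log2 fold changes of vp14, Zm00001d041319 and dhn1 were -0.05, 2.85 and 1.62, with adjusted p of 0.985, 0.189 and 0.103 in edgeR. A filter of 1 CPM in 3 libraries left Zm00001d041319 untested, and Zm00001d007876 had a value in DESeq2 and with no filter only. List alternatives were not run, since the lists had no members. Depth limits Zm00001d007876 and wild-type values of Zm00001d041319 most.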
